A study of Mus musculus with 2 samples.

Results

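Most annotated hairpins of the mouse miRNAs miR-297, miR-466, miR-467 and miR-669 lie along an intron of Sfmbt2, where they are repeated many times. The members described here are all names without a star, among the known miRNAs counted in these brain libraries, whose number is that of miR-297, miR-466, miR-467 or miR-669, with any letter or arm suffix. There were 27 such names of 405 names without a star: 2 of miR-297, 9 of miR-466, 4 of miR-467 and 12 of miR-669. A star marks the strand of a hairpin that is usually the less abundant.

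Small RNAs of whole brain were sequenced from adult male C57BL/6J mice at 2 ages, 5 months (young) and 24 to 25 months (old). Each age is 1 library, made by combining the cDNA of 2 mice, so no replicate error exists and no test can compare the ages themselves. For every mouse 10 µg of total RNA was run on a gel, from which RNA of 18 to 30 nt was cut. The files hold 4523267 young and 6658732 old reads that the authors had aligned to the mouse genome, collapsed to distinct sequences (tags) with their counts. Levels are given as rpm, reads per 1000000 of these aligned reads of a library. All intervals are 95% intervals that cover the sampling of reads alone, since PCR copies of a molecule are not independent.

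A miRNA is cut from a hairpin precursor, and its bases 2 to 8, the seed, pair with target mRNAs, so that a shift of the 5′ end by a single base gives another seed. Sfmbt2 encodes a Polycomb group protein; the gene is imprinted, with expression from the paternal allele, and it is needed in the placenta, where its intronic miRNAs are abundant. The hairpins of these miRNAs are made of simple repeats rich in T and G on the 5p arm (the 5′ side) and in A and C on the 3p arm, and several copies can share a mature sequence.

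The sequences below are the tags counted for miR-669c, miR-467e, miR-467a, miR-467c, miR-467d, miR-466n-5p and miR-669a-3p, with the alternative ends on which the results turn. Capitals mark the seed. The T-start tags of miR-467a, miR-467c and miR-467d share the seed bases AAGTGC, the A-start tags of miR-467c and miR-467d share the seed TAAGTGC, and the tag of miR-467e has the seed TAAGTGT. The last sequence, miR-290a-3p, is taken from RefSeq (GRCm38.p6) and is shown because it has the seed of miR-467a, as does no other of the 1679 mature miRNAs of that table, which lacks the members themselves.
miR-669c, counted tag: aTAGTTGTgtgtggatgtgtgt
miR-669c, longer tag: aTAGTTGTgtgtggatgtgtgtat
miR-467e, counted tag: aTAAGTGTgagcatgtatatgt
miR-467e, tag 1 base downstream: tAAGTGTGagcatgtatatgt
miR-467a, counted tag: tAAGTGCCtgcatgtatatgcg
miR-467c, counted tag: tAAGTGCGtgcatgtatatgtg
miR-467c, tag 1 base upstream: aTAAGTGCgtgcatgtatatgt
miR-467d, counted tag: tAAGTGCGcgcatgtatatgcg
miR-467d, tag 1 base upstream: aTAAGTGCgcgcatgtatatgc
miR-466n-5p: gTGTGTGCgtacatgtacatgt
miR-669a-3p and miR-669o-3p: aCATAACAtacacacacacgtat
miR-290a-3p: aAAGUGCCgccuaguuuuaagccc

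Of the 27 names, 26 were located as tags inside an annotated hairpin of the same name, on the mouse genome build NCBIM37 (mm9). For 25 of these at least 1 such hairpin lay inside Sfmbt2, and for miR-466i-5p the hairpin lay on chromosome 13. The remaining name, miR-466m-3p, had a count of 0 young and 1 old reads and no annotated hairpin of its name, and was not located. The 26 names stand for 22 distinct sequences, because miR-466b-3p, miR-466c-3p and miR-466p-3p are the same sequence, as are miR-669a-3p and miR-669o-3p, and miR-669a-5p and miR-669p share the same candidate tags. For 15 of the 22 a single tag of the hairpin held both counts, and for the other 7 there were 2 possible tags with the same counts.

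The family was scarce in both libraries and most of it was near the limit of detection. The 22 sequences together held 255 young and 282 old reads, or 56.4 and 42.4 rpm. Their median was 3 reads over both libraries, against 80 reads for all 342 located known miRNA sequences without a star. At least 10 reads in a library were found for 3 of the 22 (13.6%), miR-669c, miR-467e and miR-467a, against 221 of 342 (64.6%). A further 9 sequences were seen as 1 read in all.

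By the counted tags, miR-669c alone made up 71.4% of the members' reads in the young library (Wilson interval 65.5 to 76.6%). In the old library it made up 63.8% (58.1 to 69.2%). With all tags of the starts it held 693 of 824 young and 854 of 1013 old reads. These sums leave out miR-466c-5p, miR-466g, miR-466i-5p, miR-466p-5p and miR-669o-5p, whose 2 possible tags have different starts. Each of these had 0 young and 1 old reads. By mean level of the counted tags, miR-669c was number 117 of 342, miR-467e number 178 and miR-467a number 212. A single read is worth 0.221 rpm in the young and 0.15 rpm in the old library, and a count of 0 allows up to 0.663 and 0.451 rpm (3 reads), so a member with a count of 0 was not detectable rather than absent.

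**Figure D1:**
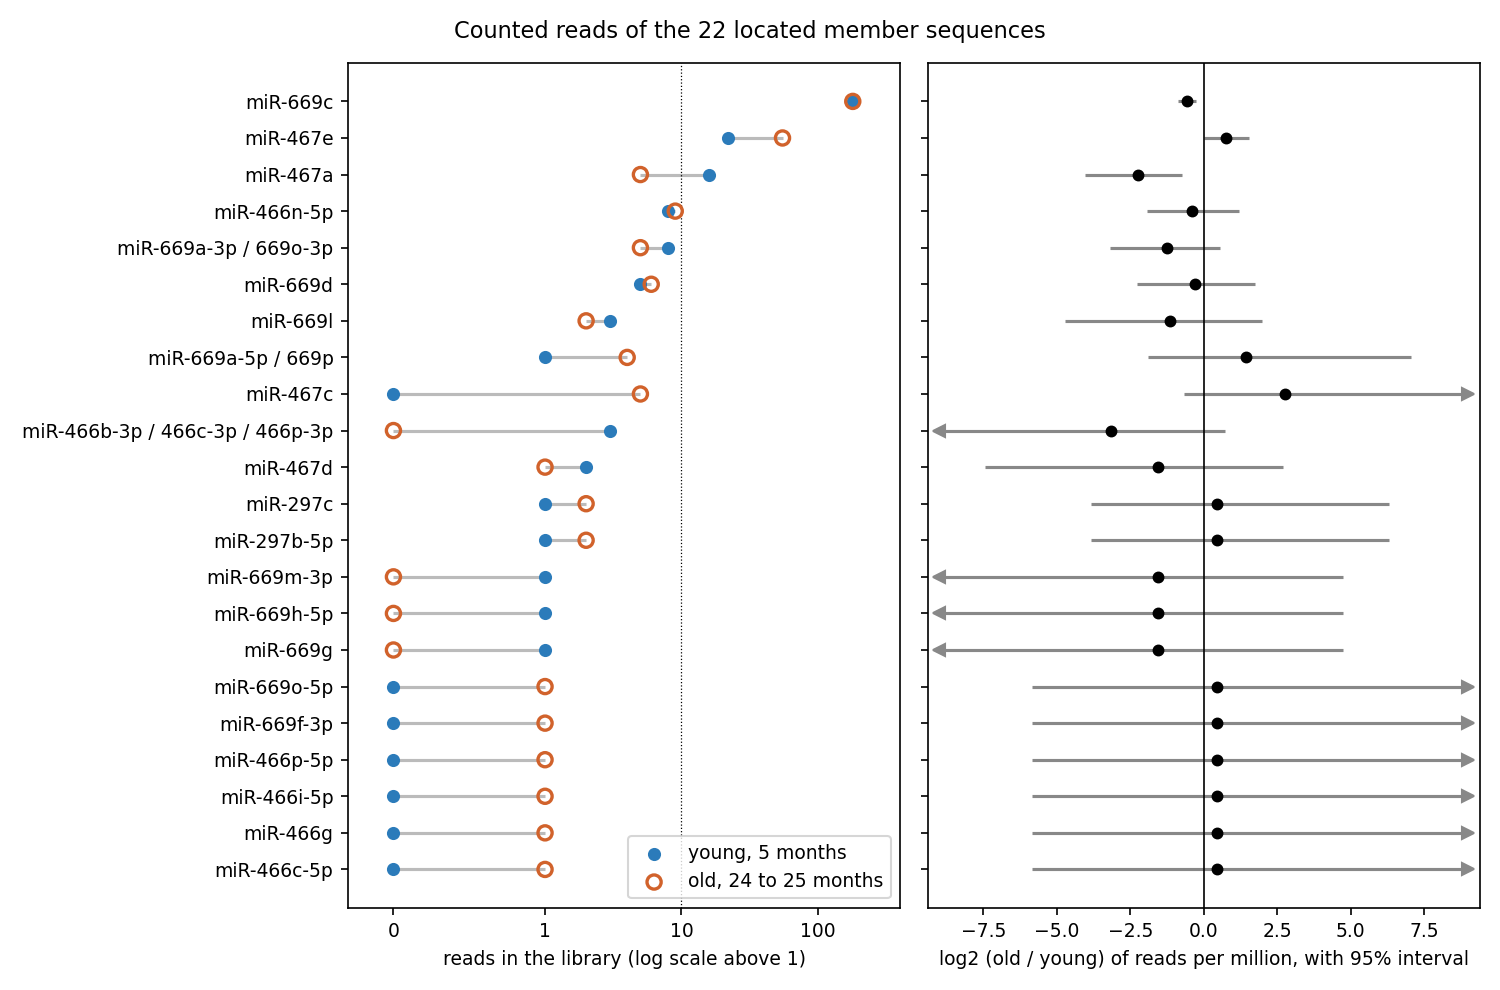
Reads of the 22 located member sequences in the young and the old library (left, reads, log scale above 1; the dotted line marks 10 reads) and the log2 ratio of old to young rpm with its exact (Clopper-Pearson) 95% interval (right; arrows mark an open end). miR-669c and miR-467e stand to the right of 10 reads in both libraries, and miR-467a in the young library alone. The intervals of the other 19 sequences hold 0.

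Summed over the 22 sequences, the old library was lower than the young, with a log2 ratio of -0.41 (interval -0.66 to -0.16). By the counted tags, the size of this difference depended on miR-669c, and its direction on the scaling. Without miR-669c the counted sum was 73 young and 102 old reads, a log2 ratio of -0.075 (-0.52 to 0.38), an interval that also holds -0.41. With all tags of the starts, and without the sequences whose possible tags have different starts, the sum had a log2 ratio of -0.26 (-0.39 to -0.13). The typical known miRNA was lower in old brain too, with a median log2 ratio of -0.62 over the 221 sequences with at least 10 reads, of which 177 were lower. Their summed level was not: all 342 sequences together had 391686 rpm in the young and 454406 rpm in the old library, a log2 ratio of 0.21. The reference therefore decides the members' direction. Against the median the members' sum stood 0.21 higher on the log2 scale, and it was above 0 under the TMM scaling of edgeR (0.36) and under the size factors of DESeq2 (0.20). With known miRNA reads as the depth its log2 ratio was -0.62, and the members were 0.0144% of known miRNA reads in the young library (Wilson interval 0.0127 to 0.0163%) and 0.00932% in the old (0.00829 to 0.0105%). Whether the members' sum differs between the ages was not tested, and in whole brain a change in the number of cells that make these miRNAs and a change in RNA per cell cannot be told apart.

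Among the 3 members with at least 10 reads, 1 differed at least 2-fold, miR-467a, which was lower in the old library. It passed the minimum through its young reads alone, so the minimum itself favours a lower old value and this count is only a description. Of the 221 known sequences, 72 (32.6%) passed the same limit, 68 (30.8%) lower and 4 (1.81%) higher in the old library, so 1 of 3 is a share near that of all known miRNAs. By the random sampling model of DEGseq, which compares the reads of 2 libraries and not the ages, 75.1% of the 221 had an unadjusted p under 0.05, as did all 3 members. Such a p, from the reads of a single library per age, says little about age.

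miR-467a had 16 young reads (3.54 rpm) and 5 old reads (0.751 rpm). Old brain thus had the smaller count despite the deeper library, and miR-467a ranked number 7 of 221 from the lowest log2 ratio. The log2 ratio was -2.24 (interval -4.04 to -0.72; random sampling model p = 0.000939, exact binomial p = 0.00125, Benjamini-Hochberg p over the 221 sequences 0.00158). Because the young count also admitted miR-467a, the ratio, its interval and the p describe these libraries and are no support for a difference. With all tags that share its first 18 nt the counts were 18 young and 8 old reads and the log2 ratio was -1.73 (-3.14 to -0.45). The tag matched 12 hairpins inside Sfmbt2 perfectly and no other place in the genome, so its reads cannot be given to any single copy.

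miR-467e had 22 young reads (4.86 rpm) and 55 old reads (8.26 rpm), the reverse order. The log2 ratio was 0.76 (interval 0.027 to 1.55; random sampling model p = 0.0258, exact binomial p = 0.0364, Benjamini-Hochberg p 0.0352), number 212 of 221 from the lowest. With all tags of its start the counts were 36 and 74 and the log2 ratio was 0.48 (-0.11 to 1.10; random sampling model p = 0.0869, exact binomial p = 0.12), so this difference did not hold up against the sampling of reads when every 3′ end was counted. The tag matches the genome at a single place, on chromosome 2 from 10427358 to 10427379 on the plus strand.

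There were 1.38 reads of miR-467e per read of miR-467a in the young library and 11 in the old, and with all tags of each start the ratios were 2 and 9.25. This pair was chosen after its values were seen, and a read minimum that miR-467a passed through its young reads alone favours a higher ratio in the old library. The ratios are therefore only a description, and the difference was not tested.

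miR-669c had 182 young reads (40.2 rpm) and 180 old reads (27.0 rpm), at a single place on chromosome 2 from 10430946 to 10430967 on the plus strand. The log2 ratio was -0.57 (interval -0.88 to -0.27; random sampling model p = 0.000134, exact binomial p = 0.000171, Benjamini-Hochberg p 0.000249), close to the median of all known miRNAs, from which it differed by 0.046. This closeness holds for the counted tag alone: with all tags of its start the ratio was -0.26 (-0.40 to -0.11). The counted tag minus its start was -0.32 on the log2 scale. Over the 173 starts of known miRNAs with at least 100 reads in both libraries the median was -0.027. In 7 of them the counted tag fell further below its start. Under TMM scaling the ratio of the counted tag was 0.20 and under the size factors of DESeq2 0.043, so the direction of miR-669c depends on the scaling.

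The counted tag was not the main form of miR-669c. Tags with its first 18 nt held 693 young and 854 old reads (153 and 128 rpm), over 46 distinct tags. The most abundant was the 24-nt tag printed above, which runs 2 bases further at the 3′ end and had 367 young and 535 old reads, against 182 and 180 for the counted 22-nt tag. The 24-nt tag made up 53.0% of the reads of this start in the young library (Wilson interval 49.2 to 56.6%) and 62.6% in the old (59.4 to 65.8%), intervals that do not overlap. The 22-nt tag made up 26.3% (23.1 to 29.7%) and 21.1% (18.5 to 23.9%), which overlap. Both forms carry the same seed.

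The choice of form set the size of the difference. The log2 ratio was -0.57 for the 22-nt tag, -0.78 (-1.36 to -0.20) for the 23-nt tag with 57 young and 49 old reads, and -0.014 (-0.21 to 0.18) for the 24-nt tag. For all tags of the start it was -0.26 (-0.40 to -0.11). There were 2.02 reads of the 24-nt tag per read of the 22-nt tag in the young library and 2.97 in the old. The mean length of tags with this start was 23.3 nt in the young and 23.5 nt in the old library, a shift of 0.143 nt. Of 173 starts of known miRNAs with at least 100 reads in both libraries, 22 had a larger shift, 13 to longer and 9 to shorter tags. The median shift over the 173 was 0.0166 nt. These forms were compared after their values were seen, and no test of the shift was made.

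**Figure D2:**
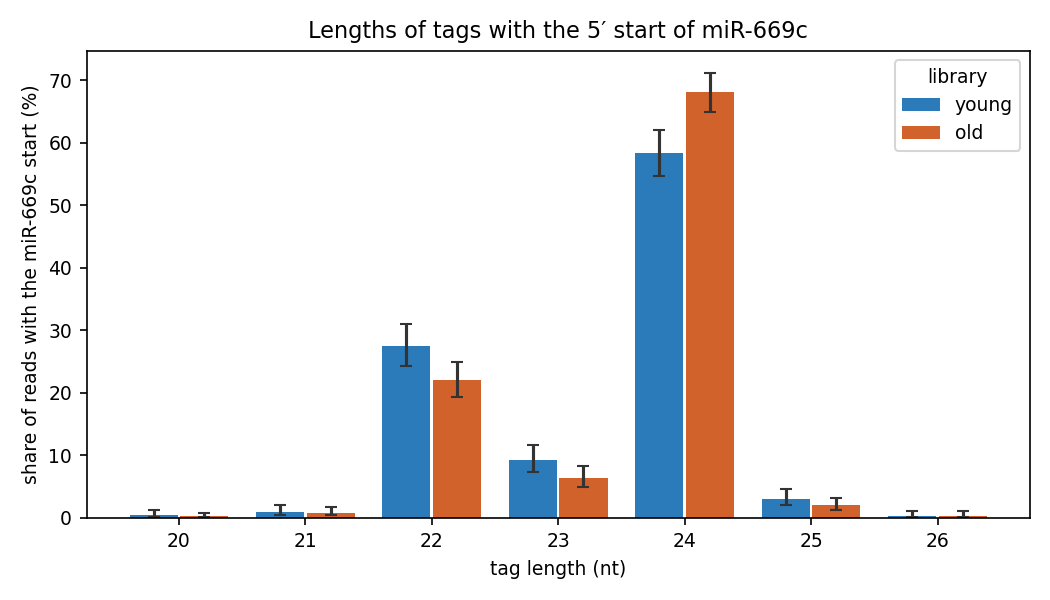
Share of the reads with the 5′ start of miR-669c by tag length in nt, in the young and the old library; bars show percent and error bars the Wilson 95% interval. In the young library 58.4% of these reads were 24 nt long and 27.6% were 22 nt, and in the old library 68.1% and 22.01%.

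Most of the reads with the start of miR-669c matched its hairpin base for base: 631 young and 786 old reads over 7 tags. The rest differed from the hairpin in at least 1 base: 8.95% in the young library (Wilson interval 7.04 to 11.3%) and 7.96% in the old one (6.33 to 9.97%), which overlap.

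Counting every tag of a start brought 4 further members to at least 10 reads in a library, and none of these 4 reached that number by the counted tag. miR-669a-3p, the same sequence as miR-669o-3p and the 3p member with the most reads, had 8 young and 5 old reads by the counted tag and 23 and 16 by its start. The log2 ratio of the start was -1.08 (interval -2.10 to -0.098), against -1.24 (-3.19 to 0.56) for the counted tag. With only the tags of the start that match a hairpin, counted so after the values were seen, it had 20 young and 15 old reads and a ratio of -0.97 (-2.04 to 0.066), which is under 2-fold and whose interval holds 0. Its sequence is held by 13 hairpins of Sfmbt2. miR-669a-5p, from the opposite arm of the same hairpins and sharing its tags with miR-669p, had 12 young and 18 old reads by its start, a log2 ratio of 0.027 (-1.11 to 1.21). The direction of miR-669a-3p held under the other scalings, which move all ratios by -0.21 to 0.77, and that of miR-669a-5p turned with known miRNA reads as the depth.

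miR-466n-5p had 8 young and 11 old reads by its start and a log2 ratio of -0.098 (interval -1.55 to 1.42), so a difference was not detectable at this depth. miR-467c had 0 young and 5 old reads by the counted tag, and 6 and 10 by its start, with a log2 ratio of 0.18 (-1.42 to 1.92). Only 4 of the 6 young reads match the hairpin, and with matching tags alone the ratio was 0.76 (-1.03 to 2.89). miR-467c reached 10 reads through its old reads alone, so the minimum favours a higher old value here. Its single place in the genome is on chromosome 2 from 10395568 to 10395589 on the plus strand. The directions of miR-466n-5p and of the miR-467c start with all its tags also turned with the scaling. For miR-467c the start of the counted tag misses most of the old reads of the hairpin, as the 5′ ends show.

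The miR-467 hairpins gave tags with 2 different 5′ ends, and therefore 2 seeds. For miR-467c, tags matching the hairpin that began 1 base upstream of the counted tag, with A, had 1 young and 16 old reads, and those with the counted T start had 4 and 10. For miR-467d the A start had 2 young and 9 old reads and the T start 3 and 2. For miR-467e the counted A start had 34 young and 71 old reads and the T start, 1 base downstream, 11 and 20. miR-467a had the T start alone, with 18 young and 8 old reads and 0 reads of the A start in both libraries.

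Over both starts, miR-467c had 5 young and 26 old reads, a log2 ratio of 1.82 (interval 0.42 to 3.56), which is only a description because the old reads alone brought it to the read minimum. The ratio was 0.58 (-1.06 to 2.46) for miR-467d, with 5 and 11 reads, and 0.46 (-0.073 to 1.01) for miR-467e, with 45 and 91 reads. The A starts of miR-467c and miR-467d together had 3 young and 25 old reads (0.663 and 3.75 rpm), a log2 ratio of 2.50 (0.79 to 4.87). Their T starts had 7 and 12 reads, a ratio of 0.22 (-1.24 to 1.80). The A-start sum is also only a description, since its old reads alone reach the read minimum. Over both starts, miR-467c, miR-467d and miR-467e were higher in the old library at the counted depth and miR-467a was lower. The intervals of miR-467d and miR-467e hold 0, and the read minimum favours the directions of miR-467c, miR-467d and miR-467a. The sums over starts were formed after the values were seen and were not tested.

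**Figure D3:**
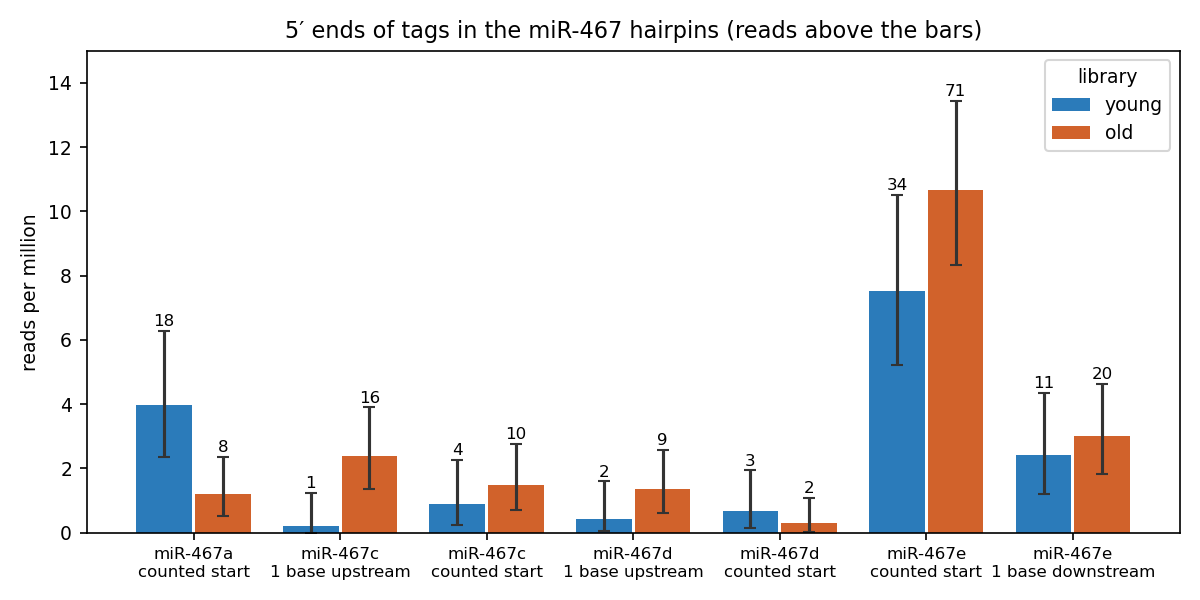
Level (rpm) of tags that match the miR-467 hairpins, by hairpin and 5′ end, in the young and the old library; error bars are exact Poisson 95% intervals and the numbers above the bars are reads. The upstream ends of miR-467c and miR-467d had 1 and 2 young reads and 16 and 9 old reads, and miR-467a had 18 young and 8 old reads.

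The seeds differ in what they share with other miRNAs. The seed of the miR-467a tag is that of miR-290a-3p, and its bases 2 to 7 are shared by 8 mature miRNAs of the RefSeq table. Among them are miR-291a-3p, miR-294-3p, miR-295-3p and miR-302b-3p, which are miRNAs of embryonic stem cells. The 8 also include miR-350-5p, which is not one of that group. The T-start tags of miR-467c and miR-467d have the same bases 2 to 7 and so share them with the same 8. The seed of the A-start tag of miR-467e is shared by 2, miR-467h and miR-668-5p. The table holds none of the 27 members and 8 other miRNAs of these numbers, so seeds shared within the family are largely missing from these counts. The counts hold for that table alone, and any other miRNA that it lacks would be missed too. Among its entries none has the seed of the miR-669c tag. Of the miR-290 to miR-295 and miR-302 to miR-367 clusters themselves, 12 annotated hairpins had 0 reads in both libraries, which allows up to 0.663 rpm in the young and 0.451 rpm in the old library.

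The 19 sequences below 10 counted reads in both libraries held from 1 to 17 reads each over both libraries, with a median of 3, and 35 young and 42 old reads together. The log2 ratio of that sum was -0.29 (interval -0.98 to 0.40), and each of the 19 intervals held 0. Of all 22 sequences, 11 had reads in both libraries, 7 had 0 young reads and 4 had 0 old reads. These counts are only a description, since those of all known sequences are not given beside them. By the counted tags, a difference between the libraries was not detectable in any of these 19 at this depth. Other ways of counting gave the intervals above that leave out 0 for miR-467c, the summed A starts of miR-467c and miR-467d, and miR-669a-3p. These intervals are no support for a difference. The old reads alone brought miR-467c and the summed A starts to the minimum, and for miR-669a-3p the interval held 0 with the matching tags.

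The 15 members with a single tag share a base composition that follows the arm. The 11 members of the 5p arm were 59.1 to 86.4% T or G, with a median of 68.2%, and miR-669c was the richest. The 4 members of the 3p arm were 21.7 to 26.1% T or G, and 73.9 to 78.3% A or C. Repetition shows in the genome matches too: 5 of the 15 matched the genome at a single place, miR-669c, miR-467e, miR-467c, miR-467d and miR-669l, and 10 matched 2 to 15 places.

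The annotation holds 83 hairpins with these 4 numbers, of which 72 lay inside Sfmbt2 on its own strand. Sfmbt2 spans 10292137 to 10516880 on the plus strand of chromosome 2, and the 72 hairpins ran over 51.3 kb, from 10388571 to 10439906, all within intron 10 of its longest transcript, which is 62.5 kb long. The 72 hairpins had 48 distinct sequences and a median length of 94 nt, with a predicted folding energy of -37.9 kcal/mol in the median. A unit that contains miR-467a, miR-466b and miR-669a hairpins recurs along the intron: 6 of 8 distances between neighbouring miR-467a hairpins, 6 of 8 for miR-466b and 8 of 12 for miR-669a were from 2400 to 2500 bp. The 9 miR-467a hairpins had 3 distinct sequences.

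Tags matched 71 of the 72 hairpins, but only 11 of them had a tag with a single match in the genome, so the number of copies in use cannot be read from these data. By number, the miR-669 hairpins inside Sfmbt2 held 684 young and 842 old reads, the miR-467 hairpins 81 and 151, the miR-466 hairpins 21 and 29, and the miR-297 hairpins 6 and 9; a tag that fits hairpins of 2 numbers counts for both. The log2 ratio was -0.26 (interval -0.41 to -0.11) for miR-669 and 0.34 (-0.058 to 0.75) for miR-467. The miR-669 ratio was above 0 with TMM, with DESeq2 and with the depth without let-7 tags, which move every ratio up by 0.77, 0.62 and 0.37.

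All 119 annotated miRNA hairpins inside Sfmbt2, which include 47 without these numbers, held 790 young and 1033 old reads over 114 tags, or 175 and 155 rpm. The old library was slightly lower, with a log2 ratio of -0.17 (interval -0.31 to -0.035), and 43 of the tags, those with a single match in the genome, gave -0.15 (-0.29 to -0.0036). This direction also turned with the scaling: the ratio was 0.60 under TMM scaling and 0.45 under DESeq2 scaling. The Mir669c hairpin held 80% of these reads in the young (Wilson interval 77.1 to 82.6%) and 76.4% in the old library (73.7 to 78.9%). Without it, an alternative added after the data were seen, 158 young and 244 old reads remained, with a log2 ratio of 0.069 (-0.23 to 0.37).

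**Figure D4:**
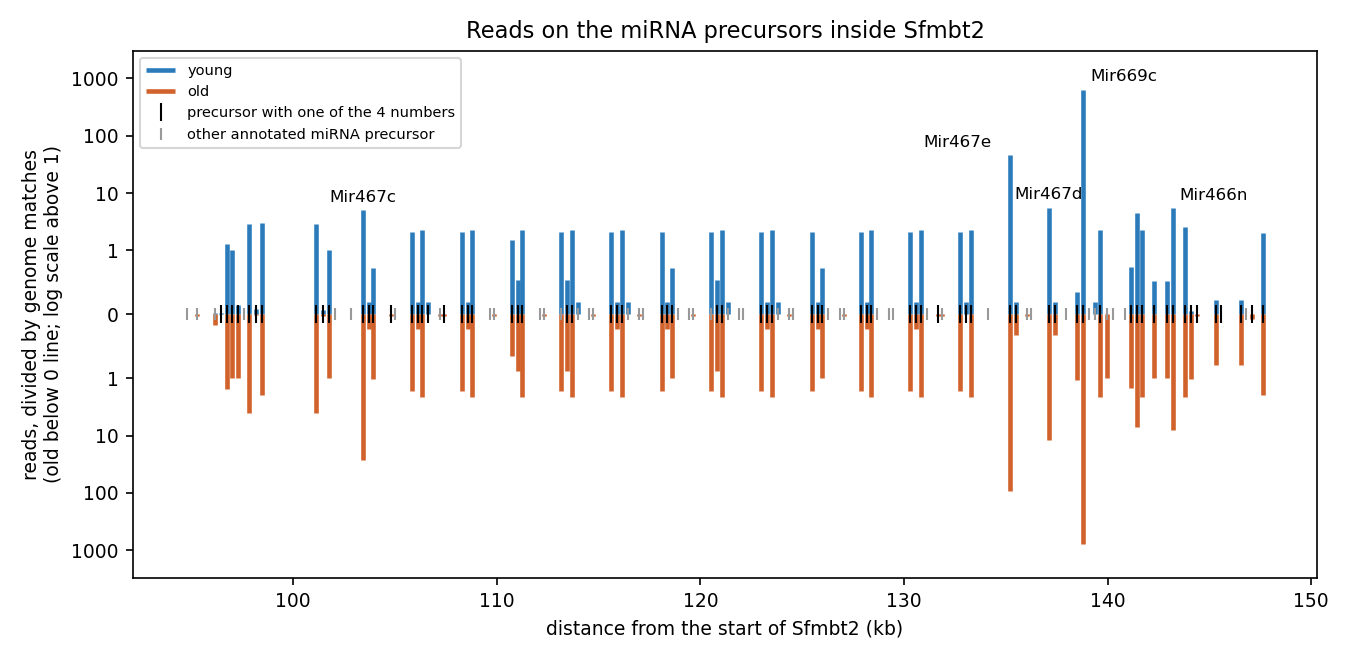
Reads on the 119 annotated miRNA hairpins inside Sfmbt2 by distance from the start of the gene in kb, each tag divided by its number of genome matches, young above and old below the 0 line (log scale above 1). Mir669c holds 632 young and 787 old reads, Mir467e 45.3 and 91.3, and the copies in the middle of the cluster a few reads each.

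The 5p arm dominated in the intron with and without the Mir669c hairpin, which held most of the 5p reads. Over all hairpins inside Sfmbt2 the 5p arm held 745 young and 981 old reads and the 3p arm 45 and 52. Without the Mir669c hairpin the 3p share was 28.5% in the young (Wilson interval 22.02 to 35.96%) and 20.9% in the old library (16.3 to 26.4%), which overlap. Outside the hairpins, 0 young reads and 1 old read matched Sfmbt2 alone on its own strand and 0 reads on the opposite strand, so the tags of the gene with a single genome match came almost entirely from its hairpins.

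The large imprinted miRNA cluster of chromosome 12, from Mir770 to Mir410, whose members are made from the maternal allele, was set beside the Sfmbt2 cluster because both are known as imprinted. Whether either is expressed from a single allele in these brains was not tested. Its 54 annotated hairpins held 126345 young and 83018 old reads, 160 times the rpm of the Sfmbt2 hairpins in the young library and 80.4 times in the old. The log2 ratio was -1.16 there and -0.17 for Sfmbt2, so the Sfmbt2 hairpins stood 0.99 higher, a difference that no scaling of the libraries moves. Mir127 alone held 40.3% of the chromosome 12 reads. The difference between the 2 clusters was not tested.

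**Figure D5:**
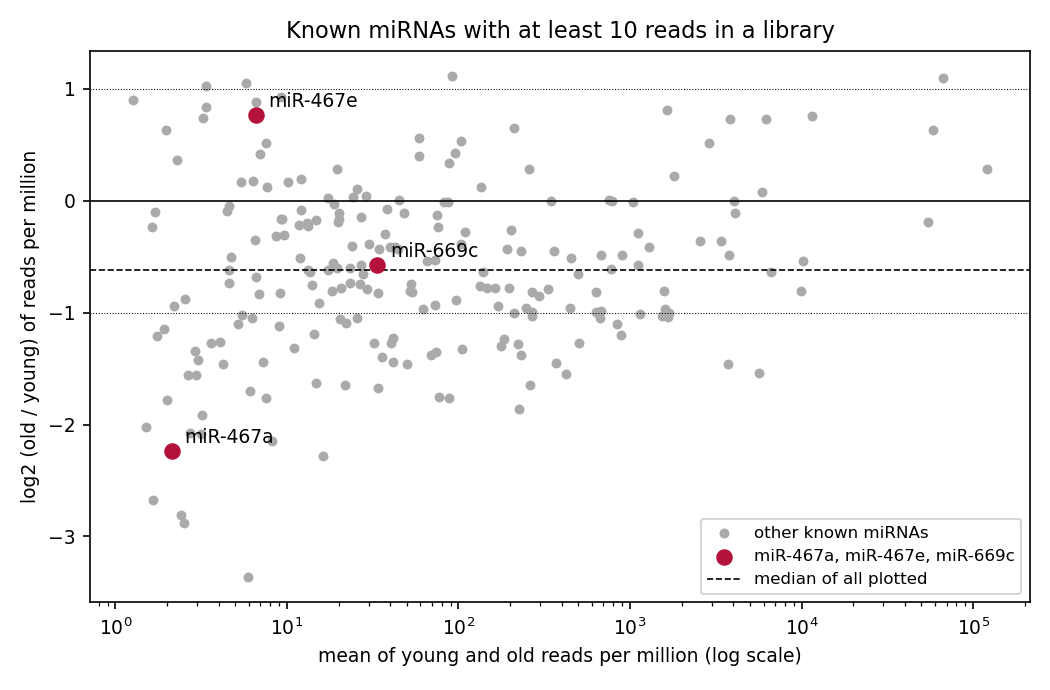
Log2 ratio of old to young rpm against the mean of both rpm values (log scale) for the 221 known miRNA sequences without a star that had at least 10 reads in a library; the dashed line is their median, -0.62, and dotted lines mark 2-fold. By the counted tags plotted, miR-669c lies near the median, miR-467a below and miR-467e above it. With all tags of its start miR-669c had a log2 ratio of -0.26.

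The libraries carried the miRNAs of brain, and other marker lists moved as well. The 6 miRNAs of brain and neurons, all found, summed to 16794 rpm in the young and 9715 rpm in the old library, with the counted tag of miR-128 the most abundant (12590 and 7211 rpm). These are counted tags: the counted tag of miR-124 was 1.01% and 0.744% of the reads of its start, and by start miR-124 had 178300 young and 113206 old reads against 103163 and 89971 for miR-128. The 2 glial miRNAs, both found, summed to 351 and 183 rpm, led by miR-219-5p (325 and 167 rpm). None of the 11 miRNAs of the pluripotent and trophoblast type was in the list of known miRNAs.

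Markers of other tissues were present too. The 3 blood miRNAs, all found, had 167 and 93.6 rpm, led by miR-486 (95.9 and 50.3 rpm). For choroid plexus 1 of 2 was found, miR-204 (51.7 and 16.2 rpm), and miR-211 was not in the list. The 2 pituitary miRNAs had 814 and 569 rpm, from miR-7a (787 and 564 rpm) and miR-375 (27.0 and 5.56 rpm). The 1 liver miRNA, miR-122, had 68.3 and 38.9 rpm. The 3 muscle miRNAs had 5406 and 8493 rpm, led by miR-1 (4649 and 7734 rpm), while miR-206 had 757 and 759 rpm and miR-133a 0 and 2 reads. Summed log2 ratios ran from -1.67 for choroid plexus to 0.65 for muscle, and the part of these shifts in the values of the miR-467 and miR-669 members was not tested.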

How the data were processed

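The deposited files give the count of raw reads per distinct sequence; the authors had removed the 3′ adapter from the reads, with up to 3 mismatches, aligned them to mm9 with SOAP and collapsed identical sequences. Members were the names without a star with the number of miR-297, miR-466, miR-467 or miR-669; the members and lists were chosen with earlier results of these data known. A name was tied to the tag in an annotated hairpin of its name and arm (gencode on NCBIM37) that held both of its counts. Members with at least 10 reads in a library, by tag or by all tags with the first 18 nt, are described singly and the others by range. Depth was the total of aligned reads; a count of 0 was set to 0.5 for log2 ratios. Arms came from RNAfold 2.7.2 at 37 °C. Ratios have exact binomial and shares Wilson intervals. The random sampling model was computed by its formula in Python 3.11.15 with scipy 1.17.1, and TMM, DESeq2 and an exact test with an assumed coefficient of variation of 0.2 in R 4.3.3, edgeR 4.0.16 and DESeq2 1.42.0. The scripts were tested on simulated data.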

Additional observations from a re-analysis of the deposited data

How the results depend on the processing

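No paired analysis was possible because each age is 1 library. Other depths moved every log2 ratio by the same amount: -0.21 with reads on known miRNAs, 0.77 with edgeR's TMM factors, 0.62 with DESeq2's size factors and 0.37 without tags of let-7 5′ ends. The members' summed ratio (-0.41) became 0.36 with TMM, 0.20 with DESeq2, -0.043 without let-7 and -0.075 without miR-669c; 5 others stayed within its interval. The ratio of the Sfmbt2 hairpins (-0.17) became -0.38 with known miRNA reads, 0.60 with TMM, 0.45 with DESeq2, 0.20 without let-7 and, added after seeing the data, 0.069 without Mir669c; 4 others stayed within its interval.

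The count of members differing 2-fold, 1 lower of 3, became 2 (1 higher, 1 lower) with TMM, DESeq2 and without let-7, 2 of 7 (both lower) with all tags of a start, 10 of 22 (2 higher, 8 lower) with no read minimum, and 0 of 2 with a minimum of 50 reads. Of all known miRNAs, 13.1% were 2-fold higher and 6.33% lower with TMM, 10.9% and 9.95% with DESeq2, 7.69% and 16.3% without let-7, 2.31% and 30.4% with all tags of a start, 5.56% and 33.9% with no read minimum, and 1.7% and 24.4% with a minimum of 50 reads. With no read minimum, 1 young and 0 old reads pass as lower (-1.56), but 0 and 1 (0.44) do not pass as higher. The balance of that count is therefore partly set by the depths and by the 0.5 put for a count of 0. Beyond this and the smaller number tested with a minimum of 50 reads, the cause was not tested.

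Counting only tags of a start that match a hairpin, added after seeing the data, gave 1 of 7, lower; of all known miRNAs counted by tags that match an annotated hairpin, 1.27% were 2-fold higher and 33.1% lower. miR-467a passed the minimum through its young reads alone, which none of its 9 alternatives changes, so its lower value in all 9 is no sign of stability. miR-467e kept its direction in 9 of 9, but the exact binomial test and edgeR's exact test leave the ratio unchanged and could not turn it. By the random sampling model, p for miR-467e was 0.105 with known miRNA reads (ratio 0.55), 0.0869 with all tags of its start (0.48) and 0.0803 with those that match the hairpin (0.50). It was 0.177 by edgeR's exact test with the assumed variation (0.76). miR-669c turned to 0.20 with TMM and 0.043 with DESeq2, and its p was 0.178 without let-7 (-0.20) and 0.199 by edgeR's exact test (-0.57). The biological spread is unknown, so these values describe 2 libraries.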

Other observations

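Of the strands with a star, miR-467d* had 5 young and 2 old reads, against 2 and 1 for miR-467d, and miR-467e* had 1 and 1, against 22 and 55 for miR-467e. The Mir467d hairpin as a whole held 5 young and 11 old reads on the 5p arm and 7 and 13 on the 3p arm. All of the 3p reads also match other copies, so they cannot be given to Mir467d. The Mir467e hairpin held 45 and 91 reads on the 5p arm and 1 and 1 on the 3p arm.

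The RefSeq table (GRCm38.p6) holds none of the 27 members and only 8 mature miRNAs with these 4 numbers: miR-466i-3p, miR-466j, miR-466k, miR-466q, miR-467f, miR-467g, miR-467h and miR-669n. The exact sequence of each had 0 reads in both libraries. Tags with the first 18 nt of miR-466i-3p had 5 young and 6 old reads and those of miR-669n 1 and 1. The 11 annotated hairpins of these numbers outside Sfmbt2 held 3 young and 5 old reads, on 2 of them, so the reads of this family came almost entirely from tags that fit the Sfmbt2 cluster.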
